A study of Mus musculus with 52 samples.

Results

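The genes described here encode the proteins of the cytosolic ribosome. They were the rows of the count table whose identifier maps to a protein-coding mouse symbol of the form Rpl or Rps followed by a number, by a, or by p0 to p2, with an optional a, x, l or l1 at the end. This gave 82 genes of the 46071 in the table, 51 for the large (60S) and 31 for the small (40S) subunit. The naming rule does not take in every ribosomal protein gene: Rps3a1, Fau and Rack1, for example, fall outside it.

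Ribosomal protein mRNAs are short, abundant and long-lived, and nearly all of them begin with a C followed by a run of pyrimidines, the 5′ terminal oligopyrimidine (TOP) tract. Insulin acts on them mainly at translation: the kinase complex mTORC1, activated through AKT, releases TOP mRNAs from the repressor LARP1 and brings them onto polysomes, while the S6 kinases phosphorylate the ribosomal protein S6, encoded by Rps6. A count of total RNA measures how much mRNA is present and does not show how much of it is translated.

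The libraries came from male C57BL/6J mice of 3 months with a jugular catheter, which were infused while conscious for 3 h with saline (basal), with insulin at 4 mU/kg/min (low) or with insulin at 12 mU/kg/min (high), blood glucose being held by a glucose infusion. RNA was taken from the hypothalamus (5 basal, 6 low and 5 high libraries), the hippocampus (6 in each) and the nucleus accumbens (6 in each), 52 libraries in all. All groups shared the surgery, strain, sex and age, and no group carried a genetic change. The labels do not say which libraries came from the same mouse, so all were treated as independent and p-values measure the spread between libraries, part of which may be technical.

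Library totals ran from 2453412 to 8279612 counts, of which the 82 genes took between 0.311% and 1.41%, with a median of 0.468%. Each region carried its own neuronal markers: the 8 hypothalamic neuron markers summed to a median of 1064 CPM (counts scaled to a common library total) in basal hypothalamus, and the 6 striatal markers to 1013 CPM in basal accumbens. Within regions the marker sums varied, since the hypothalamic sum fell to 86.8 CPM in 1 low-insulin library, the choroid plexus sum ran up to 5965 CPM among the hippocampal libraries, and that of cortical and hippocampal pyramidal neurons from 41.7 to 883 CPM among the accumbens libraries. In bulk tissue, fewer cells of a type and less RNA per cell cannot be told apart. The part of these marker differences in the results below was not tested, apart from the fits in the closing section that left out libraries poor in a hypothalamic peptide.

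A second feature of the libraries touched the ribosomal protein genes directly. For each library the deviation of every other gene from its regional mean was correlated with the GC content of its transcript, and a library with a Spearman value above 0.4 is called leaning to GC-rich transcripts. This held for 10 libraries: basal replicates 1, 2 and 5 of the hypothalamus, basal 1, low 1, low 5 and high 1 of the hippocampus, and replicate 1 of each accumbens group. The lowest value inside the cut-off was 0.403 (hippocampus, low 5) and the highest outside it was 0.390 (accumbens, high 2). The tag numbers in the libraries' labels fall into a lowest, a middle and a highest range. All leaning libraries but basal 5 of the hypothalamus and low 5 of the hippocampus were in the lowest range. Low 1 of the hypothalamus was the only library of that range that did not lean. In the hypothalamus 3 of 5 basal libraries leaned and none of the insulin libraries did. There the basal group had 2 libraries in the lowest range and none in the middle. The low group had 1 and 2, the high group none and 2. Lean, tag range and infusion were thus partly confounded there. The main results below are given with and without these 10 libraries.

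The starts of the transcripts show what the family shares beyond its name. RefSeq promoter sequences (GRCm38.p6) were found for 62 of the 82 genes. The stretches below run from 40 bases before to 15 bases after the annotated start, and the capitals mark the longest run of C and T within 10 bases of it. The first 5 are shown because the tract spans the start and has a C at it, and the last 2 because these paralogues differed between regions. For Rpl22 the second of its 2 annotated starts is given.

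Rps6: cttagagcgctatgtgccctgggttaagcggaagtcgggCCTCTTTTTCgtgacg
Rpl35: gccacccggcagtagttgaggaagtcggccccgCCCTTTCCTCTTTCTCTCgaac
Rps18: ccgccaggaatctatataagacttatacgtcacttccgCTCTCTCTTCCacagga
Rps27: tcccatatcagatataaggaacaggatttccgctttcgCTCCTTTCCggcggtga
Rpl15: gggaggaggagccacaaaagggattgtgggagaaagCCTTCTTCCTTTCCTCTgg
Rpl22l1: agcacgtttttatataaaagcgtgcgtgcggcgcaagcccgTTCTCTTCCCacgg
Rpl22: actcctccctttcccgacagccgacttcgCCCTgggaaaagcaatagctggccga

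These lie at chr4:86857353-86857407 (Rps6), chr2:39005117-39005171 (Rpl35), chr17:33955651-33955705 (Rps18), chr3:90213634-90213688 (Rps27) and chr14:18270972-18271026 (Rpl15), all on the minus strand, and at chr3:28805468-28805522 (Rpl22l1) and chr4:152325686-152325740 (Rpl22), both on the plus strand. A pyrimidine run of at least 8 bases near the start was present in 29 of the 62 genes (46.8%), against 15.7% of the 26963 other genes in the same table. A C followed by at least 4 pyrimidines at the annotated first base was found in 13 of 62 (21.0%) against 2.97% of the others. For Rpl22l1 the annotated start fell just before a tract, and for Rpl22 the longest run near it was 4 bases. The motif CCGGAAG, searched on both strands over the whole window from 250 bases before to 50 after the start, was present in 25 of the 62 (40.3%) and in 9.86% of the other genes. A match describes the letters in the window and does not show a bound factor.

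The 82 genes were spread over 19 chromosomes, with 14 on chromosome 7 and 4 on X. They were shorter than other genes: their main transcripts had a median of 777.5 bases, and their merged exons a median of 1775.5 bases against 4690.5 for the other 13360 protein-coding genes tested. The GC content of the longest annotated transcript was similar, with a median of 51.0% against 49.8%. Ribosomal protein genes have many processed pseudogenes, and a median of 53.9% of the 50-base stretches of a main transcript also occurred in the transcript of another annotated gene. For 45 of the 82 this share was above 50%, and Rpl39l and Rpl3l were among those at 0. How reads matching several places were counted is not given in the sources used here, so the levels of genes with a large shared part are uncertain. The 268 rows with an Rpl or Rps symbol marked -ps as a pseudogene held 0.733% as many counts as the 82 genes. Pseudogene rows under other names were not counted, so this is not the full pseudogene share. Across the 82 genes the level per kilobase and the shared part had a Spearman rho of -0.13 in the hypothalamus, a description across genes that share libraries and are not independent.

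Levels per kilobase of merged exon spanned the range from 0 to that of Rplp1. Rplp1, an acidic protein of the stalk that recruits elongation factors, had the highest level in all 3 regions: 258 ± 104 CPM per kb in the hypothalamus (SD, n = 16), 290 ± 78.6 in the hippocampus (n = 18) and 299 ± 86.2 in the accumbens (n = 18). The 3 means lay within their spread. Rps15, Rps21 and Rpl4, a large 60S protein lining the exit tunnel, took the ranks 2 to 4 in each region in varying order, between 128 and 173 CPM per kb, and they did not differ from one another beyond their spread. Among genes that passed the low-count filter in all 3 regions, Rpl35a and Rpl29 were lowest, at 2.93 to 3.18 CPM per kb (Rpl35a) and 2.93 to 3.72 (Rpl29) over the regions. These ranks hold for merged exons only, which can be far longer than the main transcript. Rplp1 had 499 bases for both, but Rps14 had 2394 bases of merged exon against 597, Rps21 810 against 394 and Rpl35a 3526 against 491. Ranks per kilobase of main transcript were not computed.

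The paralogues caught by the rule were low. Rpl10l, a germline copy of Rpl10, had no count in any of the 16 hypothalamic and 18 hippocampal libraries and reached 0.123 CPM in 1 accumbens library. Rpl39l, another germline copy, was at 0 in 13 of 16 hypothalamic and in all 18 hippocampal libraries, and Rpl3l, a muscle paralogue of Rpl3, had a mean of 0.371 CPM in the hypothalamus. Rps27l had 1.53 ± 0.936 CPM there (SD, n = 16). Rpl22l1 and Rpl7l1 were higher, at 46.7 ± 11.7 and 24.8 ± 4.29 CPM. Rpl23a and Rpl24, which are core 60S proteins, were also near the floor, with means of 0.642 and 1.14 CPM in the hypothalamus. They share 85.7% and 81.7% of their 50-base stretches with other annotated transcripts. Rpl3 and Rpl9 share 85.6% and 93.3% and had means of 279 and 171 CPM there. The part of shared stretches in these levels was not tested. With Rpl10l, Rpl39l and Rpl3l, Rpl23a and Rpl24 fell below the low-count filter everywhere, and Rps27l did so in the hippocampus and accumbens. This left 77 genes tested in the hypothalamus and 76 in each other region.

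**Figure D1:**
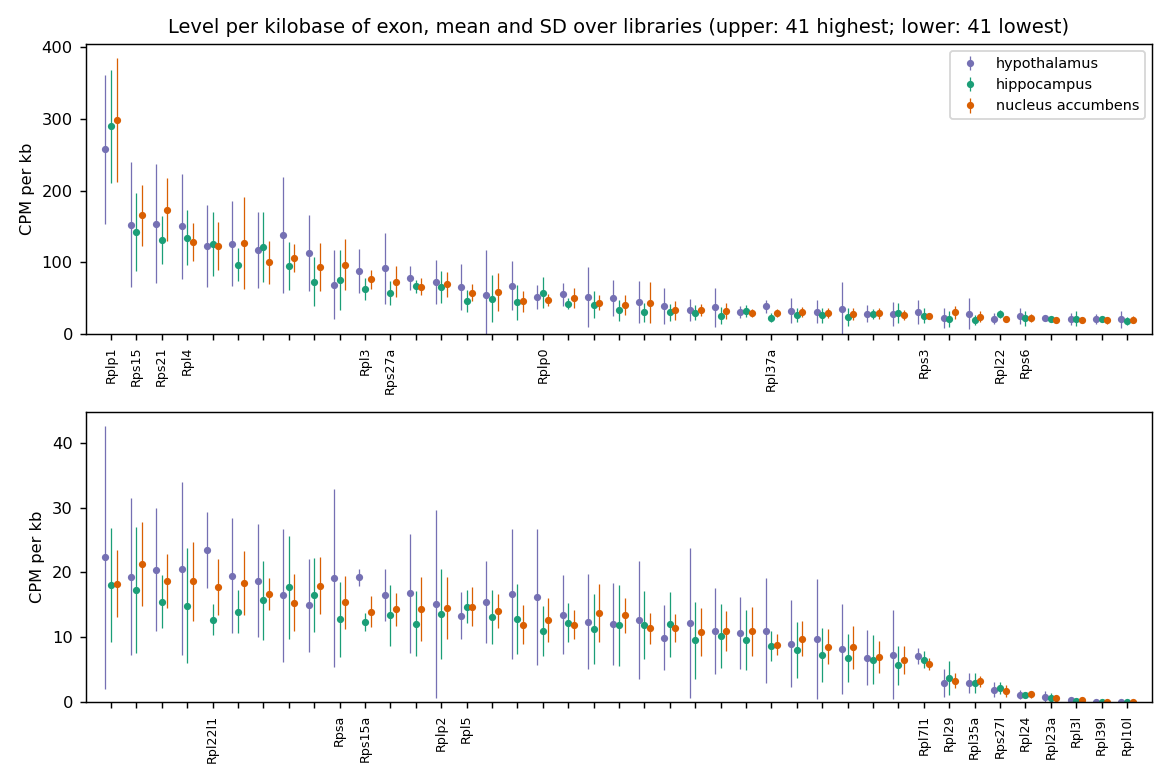
Mean level per kilobase of merged exon (CPM per kb, linear axes from 0, the lower panel on a smaller scale) of each of the 82 genes in the 3 regions, with names only for some of the genes in the text; bars are the SD over libraries (n = 16, 18 and 18), clipped at 0. Genes are ordered by their mean over regions, from Rplp1 at 258 to 299 CPM per kb to the paralogues Rpl3l, Rpl39l and Rpl10l at or near 0.

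The ribosomal protein genes moved together from library to library. The correlation of a gene with the median of the others, over the libraries of a region, had a median of 0.89 in the hypothalamus (77 genes, 16 libraries), 0.88 in the hippocampus (76 genes, 18 libraries) and 0.64 in the accumbens (76 genes, 18 libraries). The genes of a library share its depth and composition, so these values describe and carry no p. Rpl22l1 and Rpl39 had values below 0 in each region (-0.38, -0.46 and -0.01 for Rpl22l1), and Rps15a did in the hypothalamus (-0.30), where its level hardly varied (SD 0.09 on the log2 scale).

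The common movement followed the libraries' leans. The median deviation of the genes from their regional mean had a Pearson r with the lean to GC-rich transcripts of 0.72 in the hypothalamus, 0.58 in the hippocampus and 0.43 in the accumbens (Spearman rho 0.78, 0.61 and 0.56). Without the 2 libraries farthest from the median lean these were 0.71, 0.34 and 0.42. A lean to long transcripts was computed the same way from exon length, a choice made after the data had been seen, and for it r was -0.93, -0.89 and -0.75 (rho -0.96, -0.94 and -0.80), and -0.87, -0.87 and -0.64 without the 2 farthest libraries. Within the 9 libraries per region that carried the highest range of library tag numbers, the only range with 3 libraries in every group, r with the length lean was -0.98, -0.82 and -0.59, and r with the GC lean was 0.88, 0.36 and -0.26. In the hypothalamus, basal replicate 5 had the lowest length lean, -0.51, and the highest median deviation, 1.46 on the log2 scale. Rplp0, Rpl4 and Rps9 followed the GC lean most closely, with mean r over regions of 0.86, 0.78 and 0.77. Rpl22l1, Rpl37a and Rps15a had the lowest values, -0.55, -0.20 and -0.14. Each point shares a library with all genes of that library.

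**Figure D2:**
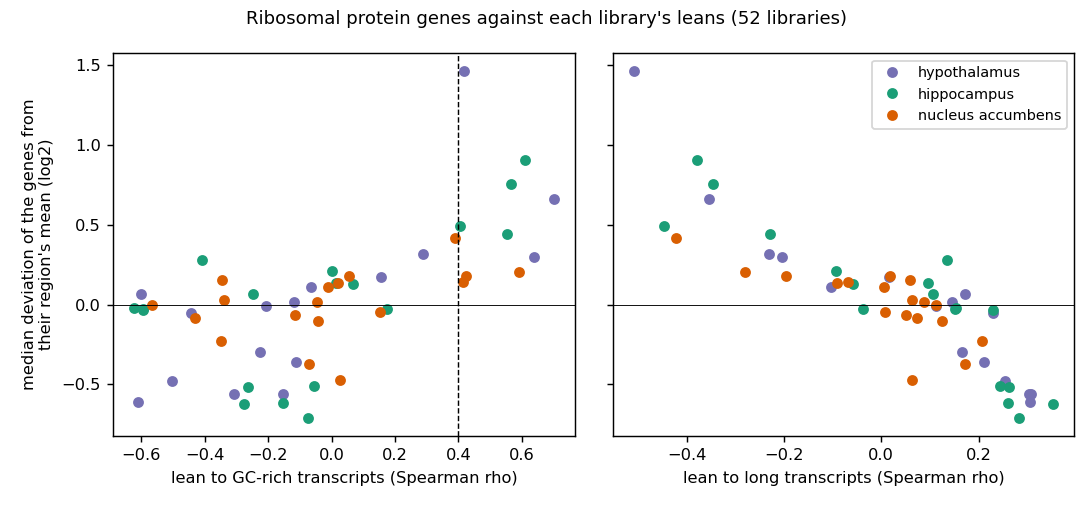
Median deviation of the ribosomal protein genes from their regional mean (log2) in each of the 52 libraries against the library's lean to GC-rich transcripts (left; dashed line, the cut-off of 0.4) and to long transcripts (right), both Spearman values over the other genes. Points fall from upper left to lower right in the length panel, with r of -0.93 in the hypothalamus, -0.89 in the hippocampus and -0.75 in the accumbens.

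In the hypothalamus the median log2 fold change of the 77 tested members under insulin against saline was below 0 with all libraries and above 0 when the leaning libraries were left out. With all libraries 1 of the 77 passed for low insulin and 0 for high insulin, and without the leaning libraries 0 passed for either. The basal libraries gave the 82 genes 0.609%, 0.786%, 0.448%, 0.419% and 1.41% of counts in replicates 1 to 5. The low-insulin share ran from 0.377% to 0.663% with a median of 0.487%, and the high-insulin libraries held 0.520%, 0.594%, 0.402%, 0.468% and 0.587%. The 3 leaning basal libraries were the 3 highest basal values, and the other 2 lay inside the range of the insulin groups. The mean share was 0.735% ± 0.406 under saline (SD, n = 5), 0.493% ± 0.0985 under low insulin (n = 6) and 0.514% ± 0.0813 under high insulin (n = 5), and 0.433% under saline without the leaning libraries (n = 2). Marker sums differed between the same groups: the hypothalamic neuron markers had medians of 1064, 690 and 758 CPM under basal, low and high insulin, and those of ependyma and tanycytes 68.2, 39.2 and 48.7 CPM. Their part in the shifts was not tested. Within the highest tag range the shares were 0.448%, 0.419% and 1.41% under saline, 0.377%, 0.424% and 0.517% under low insulin and 0.402%, 0.468% and 0.587% under high insulin, so that there too the groups overlapped.

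**Figure D3:**
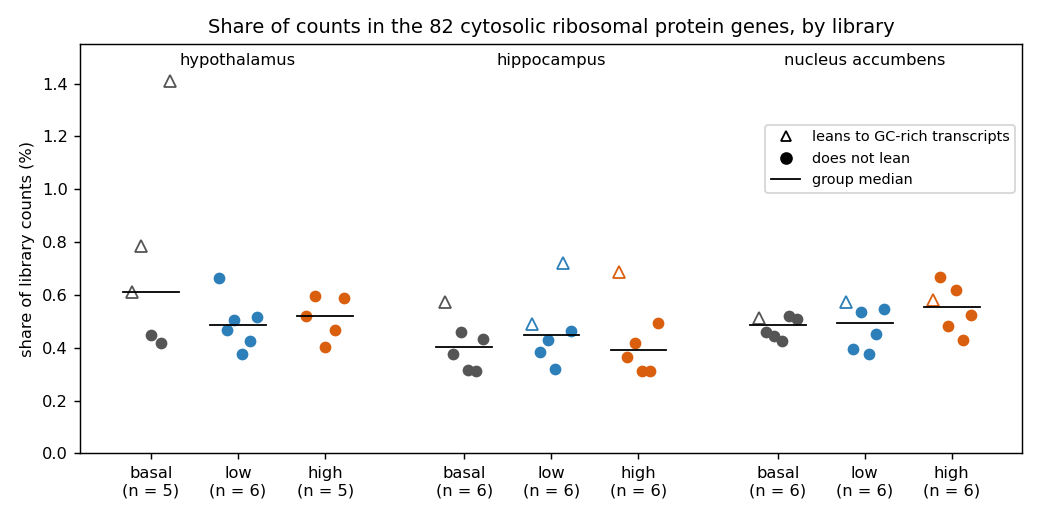
Share of each library's counts that fell in the 82 genes (%, axis from 0), by region and infusion, with open triangles for the 10 libraries leaning to GC-rich transcripts and a line at each group's median. The hypothalamic basal library at 1.41% is the highest of the 52, and the basal libraries that do not lean lie at 0.419% and 0.448%.

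Gene by gene, low insulin minus basal had a median log2 fold change of -0.63 over the 77 genes tested, against -0.02 over all genes, and 74 of the 77 were below 0. Counts above or below 0, in this and later paragraphs, describe genes that moved together and are not independent. At an adjusted p under 0.05 over the whole table (edgeR's quasi-likelihood test, Benjamini-Hochberg) 1 of the 77 passed, Rps3. Of all 14139 genes tested 5.38% passed, and 1.78% passed as lower, so the members' count was near or below the background. With DESeq2 7 genes passed as lower (background 5.26%), and in a fit of all 52 libraries 7 (background 2.24%). The count rested on single libraries: it was 18 without basal replicate 3, 19 without basal 4 and 6 without low 1, where 18%, 22.1% and 14.4% of all genes passed, and 0 without any other one. At an unadjusted p under 0.05 it was 30 of 77, and 29.9% of all genes were under it. The median was -0.21 without basal 5, the library with the highest share. No gene of the 82 had groups that did not overlap in CPM, for low or for high insulin against basal, where 2.57% and 2.68% of all tested genes did. Without the leaning libraries the median was 0.32, 65 of 77 genes were above 0, none passed (0.0204% of all genes did), and 1 had an unadjusted p under 0.05 (5.88% of all genes). That fit kept 2 basal libraries, replicates 3 and 4, and so did every later hypothalamic comparison with basal without the leaning libraries. Their leans to long transcripts were 0.165 and 0.308, where those of the insulin libraries ran from -0.231 to 0.306. The part of this lean in that fit was not tested.

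High insulin minus basal gave much the same picture, with the same basal libraries in it. The median was -0.55, 74 of 77 genes were below 0, 0 passed in edgeR (0.184% of all genes did) or in DESeq2, and 16 of 77 had an unadjusted p under 0.05 in edgeR (24.1% of all genes). Without basal replicate 4 the count past the adjusted threshold was 8 (13% of all genes), without basal 3 it was 1 (4.29%), and the median without basal 5 was -0.16. Without the leaning libraries the median was 0.36, 71 of 77 were above 0, 0 passed (background 0.0068%) and 1 had an unadjusted p under 0.05 (3.38% of all genes). Between the insulin rates, where no library leaned, the median of high minus low was 0.05, with 0 genes passing in edgeR or DESeq2 and 0 under an unadjusted p of 0.05 (1.41% of all genes). No gene of the table passed there (0%).

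Rps3, a protein of the mRNA entry site of the 40S subunit that also takes part in DNA repair, was the gene that passed. It had 186, 241, 123, 97.0 and 409 CPM in basal replicates 1 to 5, a range of 92.7 to 129 with a median of 113 in the 6 low-insulin libraries, and 114, 130, 116, 112 and 143 CPM under high insulin. The leaning basal replicates 1, 2 and 5 lay above every insulin library, and replicates 3 and 4 lay inside the low-insulin range, so the groups overlapped. Low minus basal was -0.90 ± 0.25 (SE; edgeR adjusted p = 0.0455) and high minus basal -0.78 ± 0.27 (edgeR adjusted p = 0.143). Without the leaning libraries low minus basal for Rps3 was 0.03 ± 0.15 (edgeR adjusted p = 0.986), and when tag range entered the model as a batch it was -0.86 (edgeR adjusted p = 0.169). Leaving out basal replicate 5 alone gave -0.52, no longer past the threshold, and so did leaving out basal 1 or 2 or any of low 2 to 6, with fold changes between -0.97 and -0.85. With 2.96% of its 50-base stretches shared with other transcripts, Rps3 is among the members with the least such overlap.

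Rps6, whose protein is the classical target of the S6 kinases, had 62.8, 65.5, 39.6, 22.6 and 96.4 CPM under saline, 22.3 to 43.0 with a median of 38.5 under low insulin, and 44.0, 40.6, 31.3, 28.0 and 41.0 under high insulin. Again basal 1, 2 and 5 were above all insulin libraries and basal 4 was among the lowest. Low minus basal was -0.71 ± 0.26 (edgeR adjusted p = 0.0957), and 0.14 ± 0.26 without the leaning libraries (adjusted p = 0.948). In the hippocampus Rps6 had medians of 24.1, 34.8 and 30.5 CPM under basal, low and high insulin, and in the accumbens 38.7, 32.2 and 41.4, with overlapping ranges throughout.

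None of the other members named for their role passed in the hypothalamus, and their fold changes varied with the libraries used. In the stalk, low minus basal was -0.46 ± 0.21 for Rplp0, its anchor, -0.59 ± 0.24 for Rplp1 and -1.09 ± 0.53 for Rplp2. Without the leaning libraries these were 0.19, -0.03 and 0.84. Rpl5, Rpl11 and Rpl23 can bind MDM2 and so link ribosome assembly to p53. They had -0.14 ± 0.20, -0.82 ± 0.35 and -0.55 ± 0.37, and 0.32, 0.32 and 0.57 without the leaning libraries. Rpsa, a 40S protein also known as the laminin receptor, had -1.06 ± 0.34 and 0.12. Rps14 and Rps19 are 40S proteins known from 5q- syndrome and Diamond-Blackfan anaemia. Rps14 had -0.82 ± 0.24, the smallest p after Rps3 (edgeR adjusted p = 0.0565), and -0.50 ± 0.25 without the leaning libraries (adjusted p = 0.811), while Rps19 had -1.23 ± 0.49 and 0.51. Rpl41, a very short 60S peptide, moved most between the fits, from -1.29 ± 0.73 to 1.51 ± 0.96. Rpl10, which joins the 60S subunit late, Rpl3, at the peptidyl transferase centre, and Rps4x, encoded on X, had -0.35, -0.45 and -0.24, and -0.06, 0.16 and -0.15 without the leaning libraries. Rps27 had -0.95 and 0.24 in the same fits, and Rps27a, made as a fusion with ubiquitin, -0.52 and 0.34. The 3 genes above 0 with all libraries were Rpl39 (0.54 ± 0.39), Rps27l (0.05 ± 0.48) and Rpl22l1 (0.02 ± 0.22).

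By subunit, the median of low minus basal was -0.59 over 46 large and -0.65 over 31 small subunit genes, and 0.30 and 0.51 without the leaning libraries; the difference between subunits was not tested. It was -0.47 over the 7 tested genes with under 20% of their 50-base stretches shared and -0.67 over the 15 with over 80%, and 0.30 and 0.32 without the leaning libraries.

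In the hippocampus and the accumbens no member passed in any of the 6 comparisons with edgeR or DESeq2, and no gene of the table passed in edgeR (0% in each). In the hippocampus the median log2 fold change was 0.12 for low minus basal (67 of 76 genes above 0), 0.07 for high minus basal and -0.04 for high minus low, and without the leaning libraries 0.11, 0.03 and -0.07. Leaving out 1 library at a time moved these medians between 0.03 and 0.31, -0.13 and 0.26, and -0.28 and 0.06. None of the 76 genes had an unadjusted p under 0.05 in edgeR in these 3 comparisons, where 6.05%, 2.61% and 2.84% of all genes did. The choroid plexus markers had medians of 131, 2260 and 583 CPM in the basal, low and high hippocampal libraries, and their part in these values was not tested. The mean shares of counts were 0.411% ± 0.0989, 0.468% ± 0.138 and 0.431% ± 0.143 (SD, n = 6 each), and 0.379%, 0.399% and 0.380% without the leaning libraries. In the accumbens the medians were -0.01, 0.15 and 0.14 for the same comparisons, and -0.02, 0.17 and 0.19 without the leaning libraries. They ran from -0.06 to 0.06, 0.07 to 0.20 and 0.08 to 0.22 with 1 library left out at a time. High replicate 2, at a GC lean of 0.390, stayed among the libraries that do not lean. It had the region's lowest length lean, -0.42, and its highest share, 0.667%. The part of the length lean in these medians was not tested. High minus basal had 63 of 76 genes above 0 there, with 8 of 76 under an unadjusted p of 0.05 (8 in DESeq2; 2.37% of all genes in edgeR), and high minus low had 65 of 76 above 0 with 1 such gene (2.12%). Low minus basal had 0 (1.42%). The counts of genes above 0, for both regions, are given without the share over all genes and carry no p. The members with the smallest p for high minus basal were Rps21 (0.51 ± 0.16), Rps2 (0.47 ± 0.18), Rpl36 (0.45 ± 0.18), Rpl38 (0.74 ± 0.30) and Rpl9 (0.42 ± 0.18), and without the leaning libraries these were 0.50, 0.39, 0.43, 0.65 and 0.42. The mean shares in the accumbens were 0.479% ± 0.0403, 0.480% ± 0.0828 and 0.551% ± 0.0885 (SD, n = 6 each), which overlapped.

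**Figure D4:**
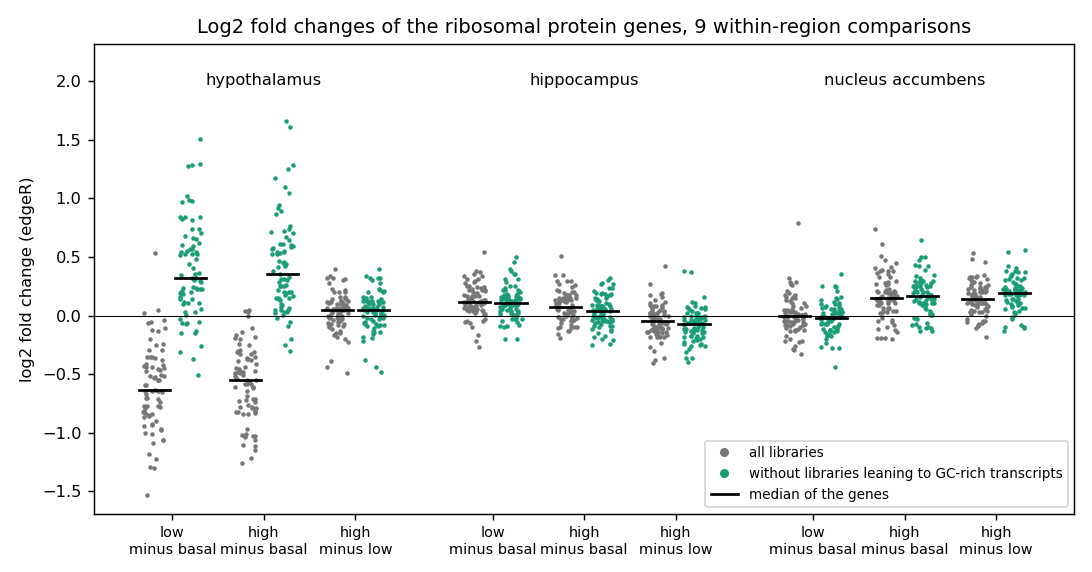
Log2 fold change (edgeR) of each tested ribosomal protein gene in the 9 comparisons of infusions within a region, from all libraries (grey) and without those leaning to GC-rich transcripts (green), with black lines at the medians. In the hypothalamus the medians of the comparisons with basal move from -0.63 and -0.55 to 0.32 and 0.36, while in the other regions they stay between -0.07 and 0.19. The green hypothalamic values against basal rest on 2 basal libraries.

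The difference between regions in the infusion effect was tested as an interaction over all 52 libraries. No member and no gene of the table passed in any of the 6 interactions (0% in each, edgeR). For low minus basal, hypothalamus against hippocampus, the median over the 77 members was -0.74, and 26 of them had an unadjusted p under 0.05 (24.3% of all genes), but it was 0.21 without the leaning libraries. Against the accumbens it was -0.65 with 13 such genes (14.1%), and 0.35 without the leaning libraries. For high minus basal the medians were -0.68 against the hippocampus, with 17 such genes (9.5%), and -0.85 against the accumbens, with 28 (18.8%), and they were 0.27 and 0.24 without the leaning libraries. In none of these 4 comparisons did a member have an unadjusted p under 0.05 without those libraries, which left 2 basal libraries in the hypothalamus. Accumbens against hippocampus gave -0.08 for low and 0.07 for high, with 0 such genes (5.27% and 2.38%). A fit with runs of consecutive library tags as a block is given in the closing section. There 2.23% of all genes passed for low minus basal, hypothalamus against hippocampus, and 0.02% for hypothalamus against accumbens. The other interactions had 0% in that fit.

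Of the lists of genes around the ribosome, none had a gene past the threshold for low minus basal in the hypothalamus, and their medians differed from list to list. The 16 other mRNAs known to carry a TOP tract, mostly elongation and initiation factors, had a median of -0.27 with 16 of 16 below 0, and 0.01 without. Among them Eef1b2 had -0.87 and Eef2 -0.04. The 75 tested mitochondrial ribosomal proteins had -0.36 (64 below 0), and 0.19 (64 above 0) without the leaning libraries. The 25 ribosome biogenesis genes had -0.25 and -0.11. The 16 tested regulators of TOP translation, such as Mtor, Larp1 and the S6 kinase Rps6kb1, had 0.04 and -0.06, with 0.17, -0.17 and 0.39 for those genes with all libraries. The median over all genes was -0.02 and 0.02 in these fits.

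How many members were called between regions depended on the fit, and a gene not called was not shown to have equal levels. A fit with runs of library tags as a block called more members in each comparison and is given in the closing section. Regions were compared as the mean of their 3 infusion groups, in a fit of all 52 libraries. In hypothalamus minus hippocampus 19 of 77 members were higher and 1 was lower, where 29.8% and 29.6% of all genes passed as higher and lower. Without the leaning libraries 18 of 78 were higher and 3 lower (29.1% and 28.9%), and 18 genes passed in both fits in the same direction, 90% of the calls with all libraries and 85.7% of those without. In accumbens minus hippocampus 7 were higher and 1 lower (23.8% and 24.2%), and 24 and 1 without the leaning libraries (25% and 23.5%), with 8 passing in both. In accumbens minus hypothalamus 0 were higher and 8 lower (19.9% and 22%), but 13 were higher and 3 lower without the leaning libraries (19.5% and 20.1%), with 3 passing in both. Calls in both comparisons with the accumbens thus depended on the 10 libraries. The shared calls were 100% of those with all libraries and 32% of those without the leaning ones in accumbens minus hippocampus. In accumbens minus hypothalamus they were 37.5% and 18.75%.

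Rps15a, a 40S protein, was called in all 3 comparisons of regions, with and without the leaning libraries. On the common scale of all 52 libraries its lowest, median and highest CPM were 108, 120 and 138 among hypothalamic libraries, 57.1, 77.6 and 89.1 among hippocampal ones and 59.2, 89.7 and 124 among those of the accumbens. All 16 hypothalamic libraries lay above all 18 hippocampal ones, while the accumbens overlapped both. The share of all genes whose libraries separate in this way is not given, here or for the genes below. Of all genes 29.8% were called higher in hypothalamus minus hippocampus. The log2 fold change was 0.65 ± 0.07 against the hippocampus (edgeR adjusted p = 4.65e-12) and -0.47 ± 0.07 for accumbens minus hypothalamus (adjusted p = 7.92e-08), and 0.65 and -0.45 without the leaning libraries. Within hypothalamus it did not follow infusion. On the scale of that region alone, which differs from the common one, its means were 130 ± 8.27, 125 ± 5.24 and 129 ± 10.8 CPM under basal, low and high insulin (SD). Merged exons of Rps15a cover 6270 bases against 640 for its main transcript, and which transcripts its counts came from was not tested.

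Rpl22 and Rpl22l1 are paralogues that can replace one another in the 60S subunit, and RPL22 protein is known to hold down the expression of its paralogue. In these libraries Rpl22l1 had a lowest, median and highest CPM of 25.3, 48.7 and 61.1 in hypothalamic, 18.2, 23.9 and 36.2 in hippocampal and 22.6, 35.5 and 60.1 in accumbens libraries. Rpl22 ran the other way, with 44.4, 54.4 and 133 in hypothalamic, 62.4, 76.8 and 137 in hippocampal and 43.6, 58.5 and 88.9 in accumbens libraries. Of 16 hypothalamic libraries, 12 lay above every hippocampal library for Rpl22l1 and 12 below every one for Rpl22. The hypothalamic value of 133 was basal replicate 5, and the hippocampal 137 was low replicate 5, both leaning.

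Hypothalamus minus hippocampus was 0.89 ± 0.12 for Rpl22l1 (edgeR adjusted p = 3.94e-09) and -0.39 ± 0.11 for Rpl22 (adjusted p = 0.00202). Accumbens minus hippocampus was 0.48 ± 0.11 for Rpl22l1 (adjusted p = 0.000374) and -0.44 ± 0.11 for Rpl22 (adjusted p = 0.000576). Without the leaning libraries the 4 values were 0.93, -0.44, 0.49 and -0.38 and all 4 passed. In the saline libraries alone they were 0.75 (edgeR adjusted p = 0.00188), -0.08 (adjusted p = 0.76), 0.28 (adjusted p = 0.265) and -0.48 (adjusted p = 0.0692), so of these calls 1 held there. Of the saline libraries 3 of 5 hypothalamic ones leaned, against 1 of 6 in each other region. In hypothalamic basal replicates 1 to 5 Rpl22 had 62.3, 70.8, 54.2, 50.7 and 133 CPM, with replicates 1, 2 and 5 leaning. In the hippocampal basal libraries it ran from 62.4 to 108 CPM. The part of the lean and of the smaller groups in the lost calls was not tested. The mean log2 ratio of Rpl22l1 to Rpl22 was -0.41 ± 0.64 in the hypothalamus (SD, n = 16), -1.69 ± 0.44 in the hippocampus (n = 18) and -0.79 ± 0.49 in the accumbens (n = 18). By infusion it was -0.62, -0.40 and -0.23 for basal, low and high in hypothalamic libraries, -1.51, -1.86 and -1.71 in hippocampal ones, and -0.76, -0.76 and -0.86 in the accumbens, each within the spread of its neighbours. Rpl22l1 shares 65.6% of its 50-base stretches with other annotated transcripts and Rpl22 24.5%.

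**Figure D5:**
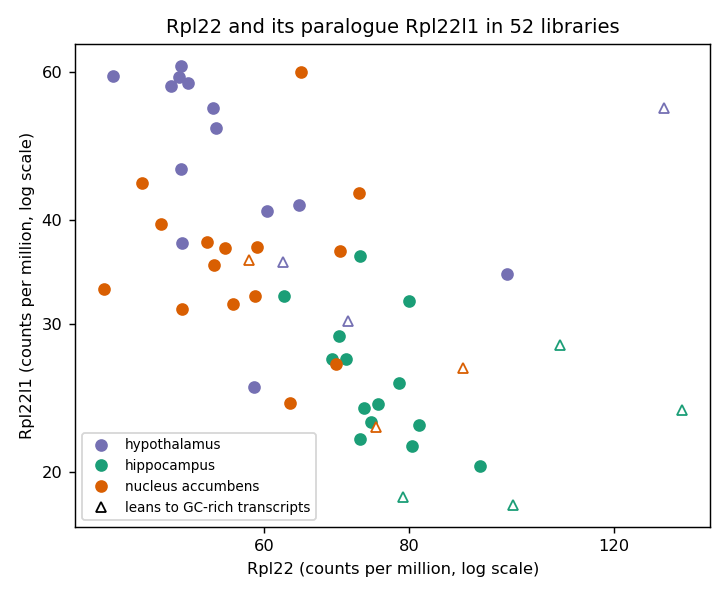
Rpl22 against Rpl22l1 (Rpl22 on the horizontal axis, Rpl22l1 on the vertical, CPM, both log axes) in the 52 libraries, coloured by region, with open triangles for libraries leaning to GC-rich transcripts. Most hypothalamic libraries lie at upper left and the hippocampal libraries at lower right, with medians of 54.4 and 48.7 CPM (Rpl22, Rpl22l1) against 76.8 and 23.9.

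Other members above the hippocampus in both fits in the hypothalamus included Rpl37a (0.75 ± 0.11 with all libraries and 0.75 ± 0.13 without the leaning ones), Rps27a (0.65 and 0.49), Rpl36a (0.64 and 0.67) and Rpl3 (0.47 and 0.40). Rpl37a had medians of 50.6, 33.4 and 40.9 CPM in hypothalamus, hippocampus and accumbens, and 12 of 16 hypothalamic libraries lay above all 18 hippocampal ones. Rps27a, Rpl3 and Rpl37a were also called higher in the accumbens than in the hippocampus in both fits, by 0.34, 0.26 and 0.36 with all libraries. In the saline libraries alone none of these 3 calls held, with 0.22, 0.21 and 0.34 (edgeR adjusted p = 0.607, 0.555 and 0.23). Rpl5 was lower in the hypothalamus without the leaning libraries (-0.33) and did not pass with all of them (-0.14). In accumbens minus hypothalamus Rpl36a was lower in both fits (-0.57 and -0.56), while Rpl31, Rps29 and Rpl41 were called higher without the leaning libraries (1.02, 1.07 and 1.13) and had 0.47, 0.49 and 0.18 with all of them.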

How the data were processed

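The values were the deposited read counts per Ensembl gene, 46071 genes in 52 libraries, and all 52 columns were matched to labels. Per the submitters' processing notes the authors used STAR, featureCounts and GRCm38.p4; for versions, strand setting, annotation and multi-mapped reads the sources used here give nothing. Libraries were stranded total RNA, per the labels. Identifiers were named from GENCODE M21 (45229 matched). Each region was fitted with edgeR 4.0.16 (TMM, filterByExpr, robust quasi-likelihood, 2-sided, adjusted over all genes tested); regions and interactions were fitted over all libraries. Levels are CPM on TMM-scaled totals. The leans used log-CPM with a prior count of 2, members left out. DESeq2 1.42.0 was an alternative. Shared 50-base stretches were sought in annotated transcripts, not the genome. Code was tested on simulated data. Named members were those with a known role, the paralogues, those with the smallest p or largest change per comparison, the highest and lowest levels, and those most and least tied to the GC lean. Members and lists were chosen with earlier results of these data known.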

Additional observations from a re-analysis of the deposited data

Results flagged for a closer look

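Within groups, 63 sets of per-library values were checked for a library whose gap to its nearest neighbour was large for the group's range, and 8 stood apart; chance alone gives about 1 in 20 groups. None of the 6 interactions had a gene past the threshold in the main fit. Rps3 had 179 CPM in 1 basal and 200.3 CPM in 1 high-insulin hippocampal library, both replicate 1 and both leaning to GC-rich transcripts. Rpl22 had 141 CPM in basal replicate 5, 104 CPM in low replicate 1 and 68.6 CPM in high replicate 5 of the hypothalamus, and 130 CPM in low replicate 5 of the hippocampus, on the scale of each region. Rps15a was low, at 54.0 CPM, and Rplp1 was high, at 326 CPM, in low replicate 5 of the hippocampus and basal replicate 5 of the hypothalamus.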

How the results depend on the processing

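For low insulin minus basal in the hypothalamus, where 1 ribosomal protein gene passed in edgeR, DESeq2 and the fit of all 52 libraries called 7 each and an adjusted p below 0.1 called 12 of 77 (16.5% of all genes). The count was 0 with the GC lean as a covariate, with the length lean as a covariate (chosen after seeing the data), without a filter on low counts, with the tag range as a batch, without the leaning libraries and without libraries lacking a peptide. The median of -0.63 became -0.0938 with the GC lean as a covariate, 0.12 with the length lean and 0.32 without the leaning libraries, and that of high minus basal, -0.55, became -0.0135, 0.11 and 0.36. Rps3 became 0.0301 without the leaning libraries. The cause was not tested. With saline libraries only, the median of hypothalamus minus hippocampus was 0.68 and that of accumbens minus hypothalamus -0.57. Of these saline libraries 3 of 5 hypothalamic ones leaned to GC-rich transcripts, against 1 of 6 in each other region. The part of the lean in these 2 medians was not tested. The 8 calls in accumbens minus hippocampus became 15 at an adjusted p below 0.1, 0 with saline libraries only and 13 with the tag range as a batch (54%, 27.9% and 51.3% of all genes). They became 25 without the leaning libraries (48.5%), and the 8 in accumbens minus hypothalamus became 16 without them (39.7%). Leaving out 1 library at a time, counts ran from 0 to 19 for low and 0 to 8 for high minus basal in the hypothalamus, medians from -0.80 to -0.21 and from -0.71 to -0.16, and Rps3 from -1.09 to -0.52. A fit with runs of consecutive library tags as a replicate block was chosen after seeing the data, and what a tag marks is not stated. Libraries of a run had a median correlation of their deviations of 0.24, 0.30 and 0.17 (hypothalamus, hippocampus, accumbens). Pairs from different runs had -0.03, -0.01 and -0.02. Of the pairs within a run 8 of 10, 12 of 18 and 10 of 18 were over 0.1. In 6 of 14, 9 of 18 and 10 of 18 libraries the best correlation was with one of their own run. Libraries of a run thus deviated together in part, and what they share was not tested. The main fits had no such block, since the labels do not tie libraries to animals. With the block, low minus basal in the hypothalamus called 3 members (0.474% of all genes), Rps3 not among them, and its interaction with the hippocampus 14 (2.23%). Hypothalamus minus hippocampus called 39 (59.4%), accumbens minus hypothalamus 20 (40.2%) and accumbens minus hippocampus 12 (49.3%). Members' counts of 10191 to 65558 per library limit the low genes most.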
